A study of Mus musculus with 2 samples.

Results

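Sites of open chromatin around microRNA genes were examined in mouse GSCs that lacked Stag3, a subunit of the cohesin ring. A site was a region with an ATAC-seq peak in both libraries that lay within 5000 bp of an annotated microRNA gene and more than 1000 bp from either end of every protein-coding gene. The rule used positions only, and it took 435 of the 83732 regions shared by both libraries. These are called microRNA sites below. A further 335 shared regions lay within 5000 bp of a microRNA gene but at the end of a protein-coding gene, and were set aside because they could belong to that gene. The labels give the cell type as GSC and the genotype as Stag3 KO. All cells carried the reporters Acrosin-EGFP and beta-Actin-EGFP, and viable reporter-positive cells had been sorted before the transposase was added. The series held 1 group of 2 libraries, replicate 1 and replicate 2, and the labels do not say whether these came from separate cultures or lines. Wild-type libraries were not analysed here, so no value below is an effect of the knockout, and the peak lists could not check the deletion because the deleted part of Stag3 is not stated.

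MicroRNAs are short RNAs cut from hairpins in longer primary transcripts, which start either at a promoter of their own or at the promoter of a host gene. A mature microRNA guides Argonaute to messenger RNAs by pairing through its seed, the stretch next to its 5′ end, so microRNAs with the same seed share most of their predicted targets. In the mouse testis, small RNAs of this class are needed for spermatogenesis, and several families have been studied in spermatogonia, the cells from which GSC cultures are derived.

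In ATAC-seq, the Tn5 transposase cuts accessible DNA, and a peak is a place with more cuts than its surroundings. Replicate 1 held 107331 peaks and replicate 2 held 98986. Fold below is the authors' own value for a peak, its summit signal over the local background, and tags are the reads at the summit recovered from that fold and its p-value. Peaks had a median of 40 tags in replicate 1 and 41 tags in replicate 2. In bulk chromatin a low fold cannot tell a site open in few cells from one that is weakly open in many. All 10 germline marker genes, Ddx4 and Id4 among them, had a shared peak within 1000 bp of a gene end. So did 3 of 8 markers of testis somatic and feeder cells, Sox9, Wt1 and Col1a1, and 1 of 6 endothelial and blood markers, Kdr. Over all protein-coding genes the share was 65.8%. With 1 peak counted per gene, the summed fold was 131 and 135 over the 10 germline peaks in replicates 1 and 2. It was 33.8 and 33.3 over the 3 somatic and feeder peaks, and 15.4 and 15.96 for Kdr. Gfra1, Ret and Lin28a had 3 such peaks each, and Etv5, Wt1 and Kdr had 2, so these sums leave some peaks out. Per peak, the mean was 13.1 and 13.5 for the germline list and 11.3 and 11.1 for the somatic and feeder list, so the lists differ mainly in how many genes had a peak. Within the germline list, the counted peaks of Gfra1 (6.98 and 6.71), Lin28a (5.15 and 3.70) and Nanos2 (4.08 and 2.79) were low. They lay below the median fold of all peaks, 8.78 and 8.73, in both libraries. They were also below Sox9, Wt1, Col1a1 and Kdr in both. Ddx4, Id4, Ret, Etv5 and Sall4 lay above that median in both libraries. Dazl did so in replicate 1 only and Zbtb16 in replicate 2 only. The part that other cells had in the microRNA sites was not tested.

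Of 1180 microRNA genes on the chromosomes used, 337 had at least 1 microRNA site, which is 28.6% (95% Wilson interval 26.1% to 31.2%). No peak of either library lay within 5000 bp of 565 genes (47.9%). Another 185 genes (15.7%) had only a shared region at a protein-coding gene end. The remaining genes had peaks that were not shared, in replicate 1 only for 57, in replicate 2 only for 30, and as separate peaks of both libraries for 6. Mature microRNA sequences were counted for 309 of the 337 genes with sites. Genes with a site but no counted sequence include Mir143, Mir145a and Mir187, so 309 is not the number that RefSeq knows. The counted genes gave 514 mature sequences with 446 seeds, and 46 seeds were shared by several of them. The sequences printed next are those of the families whose sites are described below. They are given 5′ to 3′ with the seed, bases 2 to 8, in capitals, and were taken from RefSeq on GRCm38.p6. The miR-17 group, made by the clusters on chromosomes 14 and X, shares the seed AAAGUGC:
miR-17-5p: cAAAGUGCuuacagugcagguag
miR-20a-5p: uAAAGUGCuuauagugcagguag
miR-20b-5p: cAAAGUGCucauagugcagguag
miR-106a-5p: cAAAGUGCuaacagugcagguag

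The let-7 group shares the seed GAGGUAG, which 8 of the counted genes with microRNA sites carried, the largest such group. The 6 from the let-7 genes with a site, 1 for each name, are shown:
let-7b-5p: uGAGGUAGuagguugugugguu
let-7c-5p: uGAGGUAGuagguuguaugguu
let-7d-5p: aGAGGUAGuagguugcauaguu
let-7e-5p: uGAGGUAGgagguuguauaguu
let-7g-5p: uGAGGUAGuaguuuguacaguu
let-7i-5p: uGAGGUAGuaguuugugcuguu

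Further microRNAs whose sites are described are shown because pairs of them carry the same seed from different chromosomes (miR-34a with miR-34b, miR-10a with miR-10b), because 1 sequence comes from several loci (miR-9), because their seeds resemble each other within 1 cluster (miR-183, miR-96 and miR-182), or because the gene had the site with the highest mean percentile of fold (miR-146a):
miR-34a-5p: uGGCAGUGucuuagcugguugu
miR-34b-5p: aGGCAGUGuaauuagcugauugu
miR-10a-5p: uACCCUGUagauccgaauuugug
miR-10b-5p: uACCCUGUagaaccgaauuugug
miR-9-5p: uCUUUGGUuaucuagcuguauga
miR-183-5p: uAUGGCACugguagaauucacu
miR-96-5p: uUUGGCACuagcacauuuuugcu
miR-182-5p: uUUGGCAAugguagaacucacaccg
miR-146a-5p: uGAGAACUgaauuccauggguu

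The microRNA sites ranged widely in fold, with values between 2.41 and 35.9 in replicate 1 and between 2.49 and 36.1 in replicate 2. Their median fold was 9.09 in replicate 1 and 8.92 in replicate 2, a mean of 9.01 ± 0.12 (SD, n = 2). The other 64477 shared regions more than 1000 bp from coding gene ends, called other distal regions below, had medians of 10.8 and 10.2, a mean of 10.5 ± 0.41 (SD, n = 2). The microRNA sites therefore had the lower median in each library. These SDs are between 2 libraries and do not measure the spread across sites, which overlapped widely. In replicate 1 the quartiles were 5.84 and 14.6 at the microRNA sites against 6.84 and 17.7 at the other distal regions. In replicate 2 they were 6.04 and 14.3 against 6.61 and 16.9. Median tags ran the other way from median fold, with 56 and 55 at the microRNA sites against 46 and 43 at the other distal regions. The median site was 395 bp wide, against 370 bp for the other distal regions. Of the 435 sites, 192 lay above the median fold of all peaks in both libraries, or 44.1% (95% Wilson interval 39.5% to 48.8%). The same held for 49.8% of all shared distal regions. In both libraries, 22 sites were above the 90th percentile of fold, or 5.06%, beside 9.01% of all shared distal regions. No test was run on these shares, and fold and tags differ in what they count, since a site with a high local background has many tags and a low fold.

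Most peaks near microRNA genes recurred in the other library. In replicate 1, 435 of 547 peaks near microRNA genes overlapped a peak of replicate 2, which is 79.5% (95% Wilson interval 75.9% to 82.7%), beside 75.1% of all distal peaks of that library. In replicate 2, 437 of 524 peaks did so, which is 83.4% (80.0% to 86.3%), beside 83.1% of all distal peaks. Peaks near microRNA genes that were found in 1 library had medians of 21 tags in replicate 1 and 20 tags in replicate 2, against 55 and 54 tags for those found in both. At 30 sites, or 6.90%, the tags of both libraries differed 2-fold or more, beside 9.89% of all shared distal regions. The tags of the sites, on a log2 scale, had a Pearson r of 0.90 between libraries across sites, beside 0.87 for other distal regions. This is a description of 2 libraries that share local background, and sites are not replicates.

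**Figure D1:**
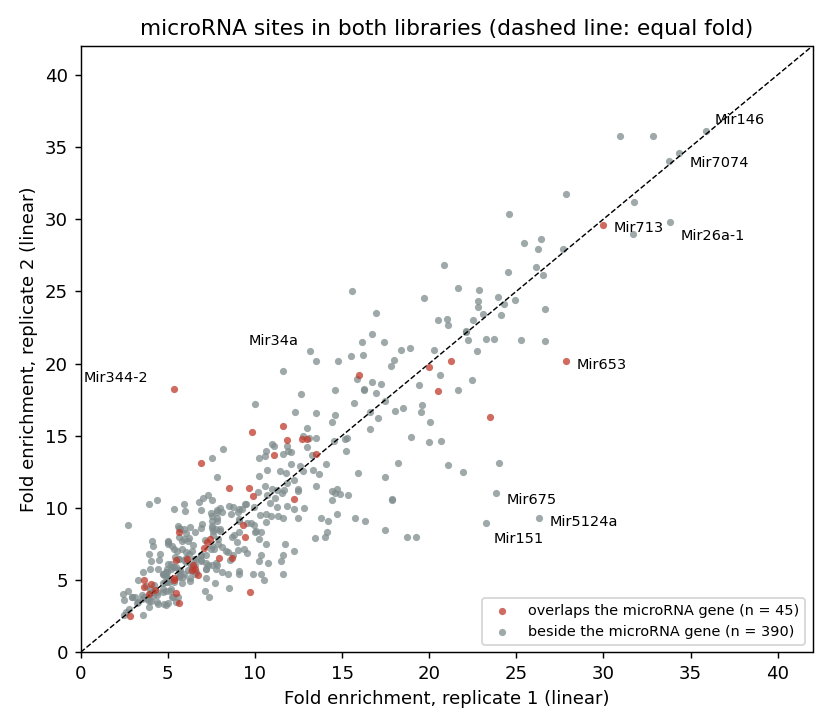
Fold enrichment (linear) of each of the 435 microRNA sites in replicate 1 (x axis) and replicate 2 (y axis), with sites that overlap the microRNA gene in red (n = 45), the others in grey (n = 390), and a dashed line at equal fold. Most points lie near the line below a fold of 15. The site at Mir146 sits at the top right with 35.9 and 36.1, while Mir5124a, Mir151 and Mir675 lie below the line and Mir344-2 above it.

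The site with the highest mean percentile of fold lay near Mir146, the gene of miR-146a, which restrains NF-κB signalling and has been studied in mouse spermatogonia for its part in the response to retinoic acid. It covered chr11:43369162-43369562 on GRCm38, 4835 bp downstream of the hairpin, and had a fold of 35.9 in replicate 1 and 36.1 in replicate 2, from 266 and 292 tags. Next came a site in Slc12a4, 3987 bp downstream of Mir7074 (chr8:105947256-105947650), with 34.4 and 34.6. The site 1376 bp upstream of Mir378d (chr10:126711767-126712182) had 32.9 and 35.8. Both libraries gave each of these a fold more than 3 times their median over the 435 sites. The site near Mir26a-1, which lies in Ctdspl, a gene for a small phosphatase of the RNA polymerase II tail, was at chr9:119027573-119027972, 3824 bp upstream of the hairpin, with 33.8 and 29.8 from 216 and 178 tags. The other sites among the 10 highest were near Mir1968 (33.7 and 34.0), Mir467h (31.0 and 35.8), Mir5101 (31.8 and 31.2), Mir7080 (31.7 and 29.0), Mir713 (30.0 and 29.6) and Mir3470b (27.8 and 31.7). Of these, the Mir713 site overlapped the hairpin itself. The Mir3470b site lay in Gramd1c and touched an annotated start of that gene. At the low end stood a site overlapping Mir1894 in Ppp1r10 (2.82 and 2.49), a site in Tlcd1 near Mir7653 (2.50 and 2.59) and a site in Nrp1 near Mir1903 (2.60 and 2.79). The first had 94 and 84 tags, more than the median site, so its low fold came with a high background.

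Sites lay at a median of 1900 bp from the nearest microRNA gene. The hairpin itself was touched by 45 sites (10.3%), whose median fold was 7.95 in replicate 1 and 8.00 in replicate 2. Strand was known for 1027 of the 1180 genes. On that strand, 199 sites lay upstream and 157 downstream, and 34 could not be placed. The gap was widest within 1 kb, with 56 upstream and 34 downstream, and the later 1 kb steps held 36, 38, 36 and 33 upstream against 32, 34, 27 and 30 downstream. Median fold was alike on both sides, with 9.09 and 9.33 upstream against 9.57 and 8.92 downstream in replicates 1 and 2. Median tags were higher upstream, with 65 and 72 against 47 and 38. By distance, the sites between 2 and 3 kb away had the highest median fold of the steps, 11.6 and 10.1.

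**Figure D2:**
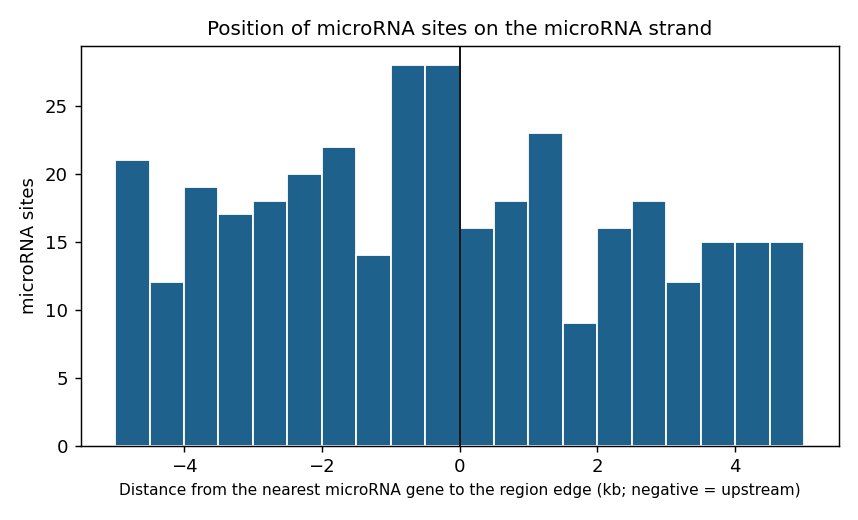
Number of microRNA sites (y axis) by distance from the nearest microRNA gene to the near edge of the site in kb (x axis, negative values upstream on the microRNA strand), for the 356 sites beside a gene of known strand. The 2 bars next to the gene on the upstream side are the tallest.

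Among sites that overlapped a hairpin, the Mir713 site ranked highest and the site over Mir653 in Calcr next (chr6:3721066-3721417, 27.8 and 20.2). Those at Mir187 and Mir145a lay on chromosome 18. Mir6917, in the neuregulin receptor gene Erbb3, had a mean fold of 19.9 ± 0.15 (SD, n = 2). Mir5618, in Tmem123, had 20.5 and 18.1 from 337 tags in replicate 1 and 143 in replicate 2, a gap in tags that the folds did not show. Mir6236 had 23.5 and 16.3, Mir6349 had 15.99 and 19.2, Mir582 in Pde4d had 13.5 and 13.8, and Mir344g had 11.6 and 15.7. By annotation, 248 sites (57.0%) lay in the body of a protein-coding gene, 66 (15.2%) in a long noncoding gene only and 121 (27.8%) in neither. These shares were 46.2%, 10.2% and 43.6% among other distal regions. The sites in noncoding genes had median folds of 8.24 and 8.10, below the 9.64 and 9.14 of those in coding genes and the 9.004 and 9.28 of those in neither.

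Host gene starts were covered at some sites. The start of a gene was taken as the RefSeq window from 250 bases before to 50 after it, and 35 sites (8.05%) touched such a window, beside 3.98% of other distal regions. These 35 sites had medians of 73 and 103 tags and folds of 8.02 and 8.72, and 32 of them had more tags in replicate 2. Among the 2566 other distal regions that touched a start window, 1675 had more tags in replicate 2 and 843 in replicate 1. Over all 435 sites, 243 had more tags in replicate 2, 184 in replicate 1 and 8 the same number, against 30020, 32530 and 1927 of the other distal regions. The site at Mir22hg, the noncoding host of miR-22, covered its whole window and stood 1945 bp upstream of Mir22 (chr11:75461115-75461771). It had 461 and 538 tags and folds of 17.5 and 17.4, and its tag number in replicate 1 was the highest of all sites. Mirc35hg, the host of the miR-183 cluster, had its whole window inside a site 4136 bp upstream of Mir183 (chr6:30173873-30174656), with folds of 8.02 and 8.54 from 113 and 149 tags. The window of Kis2, the noncoding host of the miR-106a cluster, was touched over 59 bp. Its site had 5.65 and 8.64 from only 18 and 26 tags. The site at A230051N06Rik, upstream of Mir7b, had 19.7 and 24.5, and that at Snhg20, near Mir6516, had 18.9 and 21.1. Sites also touched internal starts of coding hosts, among them Egfl7 with Mir126a (11.8 and 12.4), Dalrd3 with Mir425 and Mir191 (11.8 and 14.3, on the downstream side of the hairpins), Mest with Mir335 (5.61 and 8.72) and Igf2 with Mir483 (3.97 and 5.77).

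The starts of Mir22hg and Mirc35hg, which lay wholly inside a site, are printed to show the DNA that was open there. Both strands of each window were searched for motifs. GGGCGG is known as the GC box and CCAAT as the CCAAT box. TGACGTCA is bound by CREB factors, and CACGTG, an E box, by helix-loop-helix factors. TGANTCA is a loose form of TGAGTCA, which is bound by AP-1 factors, and TATAAA is the TATA box. Since TGANTCA allows any middle base, not every match is an AP-1 site. The palindrome bound by NRF1 was also searched. Matches are in capitals, and neighbouring GC boxes can overlap. Both windows are 300 bases from RefSeq GRCm38.p6, Mir22hg at chr11:75461289-75461588 on the plus strand and Mirc35hg at chr6:30174076-30174375 on the minus strand:
Mir22hg: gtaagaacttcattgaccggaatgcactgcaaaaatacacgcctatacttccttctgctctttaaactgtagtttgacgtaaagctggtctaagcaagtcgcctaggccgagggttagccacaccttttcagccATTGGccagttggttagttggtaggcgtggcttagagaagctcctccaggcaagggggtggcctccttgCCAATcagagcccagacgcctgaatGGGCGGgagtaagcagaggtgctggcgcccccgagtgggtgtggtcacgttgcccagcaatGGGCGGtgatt
Mirc35hg: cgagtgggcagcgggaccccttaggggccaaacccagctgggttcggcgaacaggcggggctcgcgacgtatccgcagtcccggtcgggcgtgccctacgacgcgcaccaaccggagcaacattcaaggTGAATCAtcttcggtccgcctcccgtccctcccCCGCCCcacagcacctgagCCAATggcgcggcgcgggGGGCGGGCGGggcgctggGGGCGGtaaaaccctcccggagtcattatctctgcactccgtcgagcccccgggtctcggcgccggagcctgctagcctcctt

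The Mir22hg window held 2 GC boxes and 2 CCAAT boxes, and the Mirc35hg window 4 GC boxes, 1 CCAAT box and 1 TGANTCA match. That match reads TGAATCA and differs from TGAGTCA at the middle base. Across the 42 windows touched by a site, which belong to 31 genes and overlap where a gene has several, 30 held a GC box (71.4%), beside 35.7% of all 32851 windows. CCAAT was in 16 of them (38.1%, beside 37.4%), TGANTCA in 6 (14.3%, beside 7.81%) and TATAAA in 5 (11.9%, beside 13.6%). TGACGTCA was in 1 (2.38%, beside 1.79%), CACGTG in 2 (4.76%, beside 7.15%) and the NRF1 palindrome in 0 (beside 0.971%). The touched windows had a median GC content of 61.8% and 17 CpG, against 52.7% and 7 over all windows. Counted by gene, TGANTCA was in 3 of 31 and TATAAA in 2 of 31, since 4 of the windows with each belong to Mir670hg, and the GC box was in 22 of 31 (71.0%, beside 38.2% of all genes with a window). All windows include those with no peak, and windows touched by other distal regions were not counted apart. These shares are therefore not read as particular to microRNA sites. A match describes the letters in the window and is not a bound site.

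MicroRNA genes were also read in 15 families and tissue lists, which matched 220 genes. Together 70 of these genes had a microRNA site, or 31.8% (95% Wilson interval 26.0% to 38.2%), beside 28.6% of all microRNA genes. The lists ranged from 5 of 6 genes in the Hox clusters to none in 3 lists. The Hox share was 16.7% when sites had to lie more than 5000 bp from coding gene ends and 50.0% within 2000 bp or at a fold of 5 or more, while the miR-17 share was 80.0%, 66.7% and 80.0%. Genes of 1 cluster share sites, so the counts of genes are not independent observations.

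**Figure D3:**
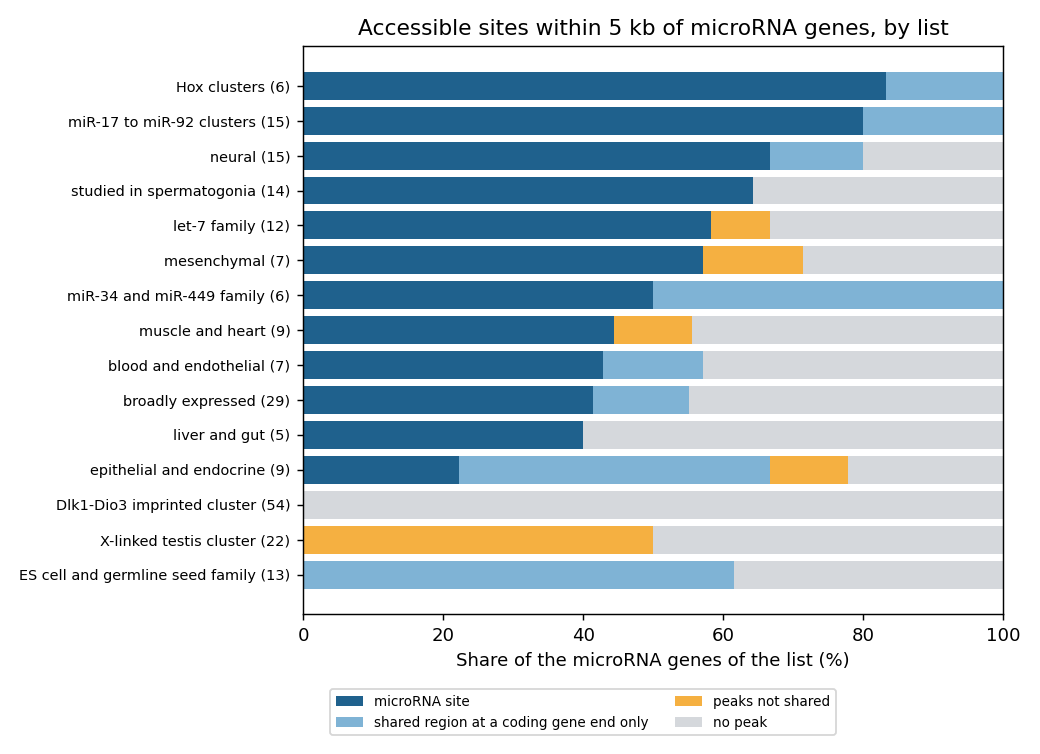
Share of the microRNA genes of each list (x axis, percent; number of genes in brackets) with a microRNA site (dark blue), with a shared region at a protein-coding gene end only (light blue), with peaks that were not shared (orange) or with no peak (grey). The Hox and miR-17 lists lead with 83.3% and 80.0%, and the Dlk1-Dio3, X-linked testis and ES cell lists have none.

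The miR-17 to miR-92 clusters, which drive proliferation in many tissues, had a microRNA site at 12 of 15 genes, from 6 sites in all. At the chromosome 14 cluster, Mir17 to Mir92-1, 4 sites lay within 5000 bp of at least 1 of the 6 genes. The strongest, chr14:115040481-115041257, lay 2414 bp upstream with a fold of 9.004 in replicate 1 and 9.73 in replicate 2, from 140 and 134 tags. A site 882 bp upstream had 5.45 and 5.88, the neighbour further upstream had 5.67 and 5.26, and a site beyond the last hairpin had 5.03 and 7.68 from 18 and 23 tags. The paralogous X-linked cluster, Mir106a to Mir363, had 2 upstream sites. The one at the Kis2 start is given above, and chrX:52745539-52745881 had 8.54 and 4.48 from 27 and 13 tags. The third cluster, Mir25, Mir93 and Mir106b, lies inside a coding gene and had only a coding-end region at Cops6, with 21.6 and 21.4. The 3 upstream sites of the chromosome 14 cluster thus had more tags in both libraries than the X-linked pair, and no value was corrected for the single X of male cells.

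The let-7 family, which promotes differentiation and is held down by Lin28 in stem cells, had sites at 7 of 12 genes. Mirlet7i carried the widest of all microRNA sites, 1466 bp over the hairpin (chr10:122985200-122986665), with folds of 9.64 and 11.4 from 85 and 116 tags. A narrower region there overlapped it and shared its replicate 2 peak. The Mirlet7g site (chr9:106181951-106182393) lay in Wdr82 and had 14.4 and 10.6, from 45 and 32 tags, the highest of the family in replicate 1 but not in replicate 2. Mirlet7c-1 had 10.7 and 10.9, Mirlet7c-2 and Mirlet7b shared a site of 7.53 and 9.06, Mirlet7e had 7.14 and 7.80, and Mirlet7d had 4.05 and 6.34. The spread between libraries at Mirlet7g was as large as the gap from it to the next family members, so no order is read from these values. Mirlet7a-2 had a peak in replicate 2 only, and Mirlet7a-1, Mirlet7f-1, Mirlet7f-2 and Mir98 had none.

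MicroRNAs that have been studied in spermatogonia had sites at 9 of 14 genes. Mir146 is described above. At Mir135a-1, whose product acts on FoxO1 signalling in germline stem cells, a site 2334 bp downstream had folds of 10.99 and 11.3 from 50 and 46 tags. Mir183 and Mir96 shared the Mirc35hg start, and a site downstream of Mir182 had 5.71 and 8.56 from 24 and 37 tags. Mir10b had 5.70 in both libraries, and Mir21a, studied for the survival of these cells, had 5.02 and 6.10 from 15 and 20 tags. Mir221 and Mir222, linked to the undifferentiated state, had no peak, and neither did Mir135a-2, Mir202 and Mir204. The list thus held both the strongest site of all and genes with no peak within 5000 bp.

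**Figure D4:**
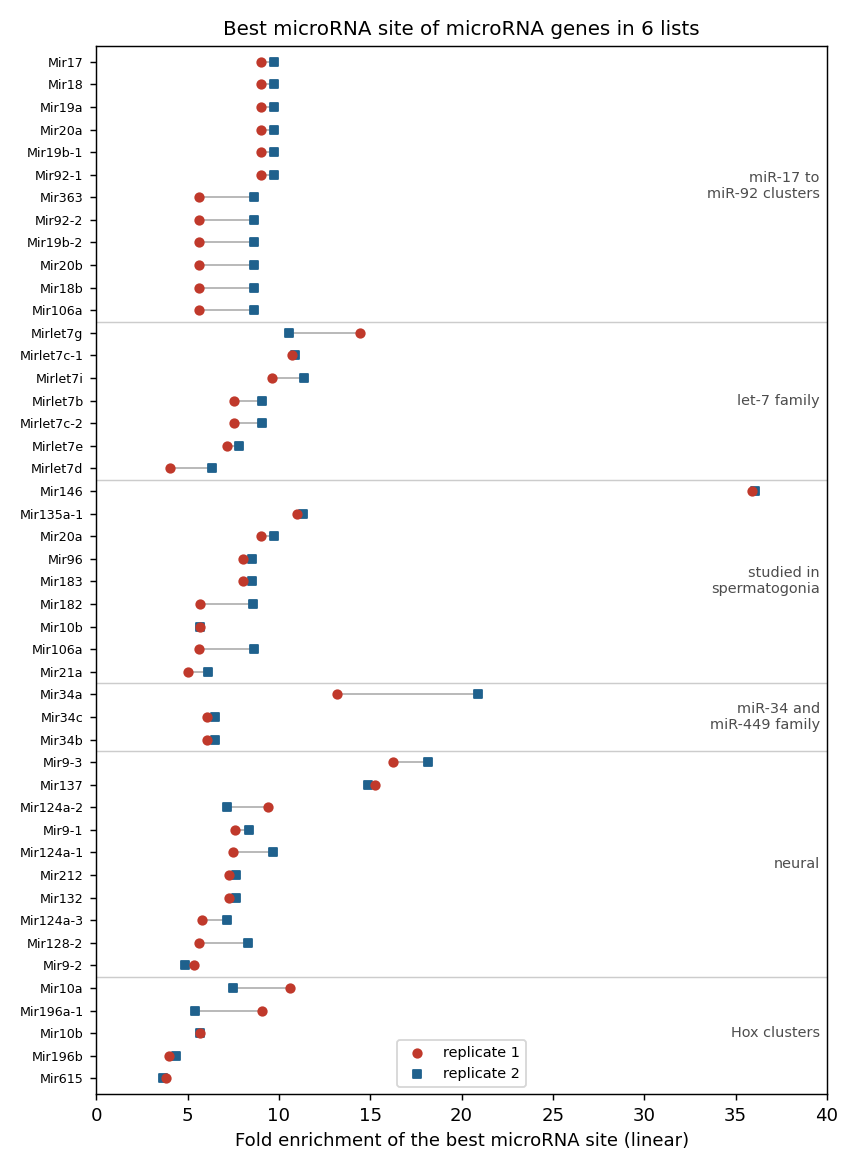
Fold enrichment (linear, x axis) of the best microRNA site of each gene with one in 6 lists, as red circles for replicate 1 and blue squares for replicate 2 joined by a line. Genes of 1 cluster share a site and show equal values, and Mir146 stands at 35.9 and 36.1 while the other genes lie below 21.

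The miR-34 and miR-449 family, whose members share a seed and act in meiotic and haploid germ cells and in ciliated cells, had sites at 3 of 6 genes. Mir34a, a p53 target gene, had a site 1374 bp upstream (chr4:150066723-150067080) with folds of 13.2 and 20.9 from 41 and 85 tags, and another 4553 bp downstream with 17.5 and 8.44. The libraries ranked these 2 sites in opposite order. Mir34b and Mir34c shared a site at chr9:51103339-51103733, over Mir34b, with 6.09 and 6.48 from 28 and 27 tags. The 3 Mir449 genes lie in Cdc20b and had coding-end regions only, the nearest with 10.1 and 14.2.

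MicroRNAs named for other tissues also had sites in these libraries. Of 15 neural genes, 10 had one, from 20 sites, or 18 after overlapping ones are merged. At Mir9-3 (chr7:79504695-79505107), 157 bp upstream of the hairpin, the fold was 16.3 and 18.2, from 184 and 215 tags. Mir137 had 15.3 and 14.9, Mir124a-2 had 9.38 and 7.14, and Mir9-1 had 4 sites with a highest of 7.59 and 8.37. One site covered both Mir212 and Mir132, with 7.27 and 7.65 from 127 and 150 tags. Of 9 muscle and heart genes, 4 had a site. The myosin heavy chain genes Myh6 and Myh7b hold Mir208a and Mir499. The best sites lay 4893 bp upstream of Mir208a (26.6 and 21.5) and 2680 bp upstream of Mir499 (15.2 and 14.0). Lower folds were found at Mir1a-1 (5.83 and 7.71) and Mir208b (4.70 and 5.44), while Mir133b, Mir206, Mir133a-1 and Mir1a-2 had no peak.

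The Hox clusters, which set body position and carry miR-10 and miR-196 genes, had sites at 5 of 6 genes. Mir10a, in Hoxb3, had 4 sites, 2 of which overlap, with a highest of 10.6 and 7.48 from 73 and 60 tags. Mir196a-1 had 9.09 and 5.40, Mir196b 4.004 and 4.37, and Mir615 3.82 and 3.66. Mir10b, Mir196b and Mir615 were below the median site in both libraries. Mir196a-2 had only a coding-end region at Hoxc9, with 9.09 and 6.67.

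Among epithelial and endocrine genes, 2 of 9 had a site. Mir205, an epithelial microRNA, had 21.1 and 13.0 from 167 and 96 tags, and Mir203 had 5.65 and 3.44. Mesenchymal genes had sites at 4 of 7, with Mir199a-2 and Mir214 in Dnm3 sharing one of 16.3 and 9.07, and Mir143 and Mir145a sharing one of 13.0 and 14.8. The blood and endothelial list had sites at 3 of 7 genes. Mir144 and Mir451a, of red blood cells, shared one of 7.53 and 13.4 from 23 and 41 tags, and Mir126a, of endothelium, had one at a start of its host Egfl7. Mir142, Mir155 and Mir223, of white blood cells, had no peak. In the liver and gut list, Mir192 and Mir194-2 shared a best site of 10.6 and 11.5, and Mir122, Mir194-1 and Mir215 had no peak.

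Broadly expressed microRNAs had sites at 12 of 29 genes (41.4%), and 13 had no peak. After Mir26a-1, the highest were Mir191 and Mir425, whose shared site at a Dalrd3 start lies 782 bp downstream of the hairpins, and the cluster of Mir23b (11.8 and 10.1 from 65 and 45 tags). Mir107 had a best site of 11.6 and 6.72 and Mir30c-2 had 11.6 and 9.28, both lower in replicate 2. A second site at Mir107 had 4.12 and 7.68, higher in replicate 2.

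Large imprinted and testis-expressed clusters stood at the other end. The 54 microRNA genes of the Dlk1-Dio3 region are transcribed from the maternal chromosome, and their control region is methylated on the paternal one. They had 0 microRNA sites, but they lie in 1 region and are not 54 independent observations. No peak of either library lay in the 184 kb from chr12:109563692 to 109747960. The X-linked cluster of 22 testis microRNAs (chrX:66776757 to 68010179) also had 0. Within 5000 bp, 11 genes had peaks that were not shared and 11 had none. The 5 such peaks of replicate 1 had folds between 3.57 and 4.48 from 12 to 19 tags, and the 2 of replicate 2 had 5.44 and 5.76 from 16 and 17 tags, so none of these had more than 19 tags. The whole span, further from the genes as well, held 13 peaks in replicate 1 and 11 in replicate 2, with up to 233 and 260 tags. The share of all microRNA genes with a site was 9.57% on chromosome 12, which holds the Dlk1-Dio3 genes, 15.6% on X and up to 47.1% on chromosome 13.

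The ES cell seed family, which speeds the cell cycle of pluripotent cells, had 0 microRNA sites among 13 genes, although DNA beside its main cluster was accessible in both libraries. All 8 matched genes of the Mir290 cluster lay within 5000 bp of 1 shared region, chr7:3217522-3217985, with folds of 25.6 and 27.3 from 244 and 271 tags. It stood 641 bp upstream of Mir290a and 658 bp from an end of Nlrp12, and the rule on coding gene ends set it aside. The 5 genes of the Mir302 and Mir367 cluster, which lie in Larp7, had no peak. Without the rule on coding gene ends, 61.5% of this list had a site.

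Some loci had several sites. Genes on 1 strand within 10 kb of each other formed 930 groups, of which 298 had a site and 112 had several. The 112 include groups with 1 site after overlapping regions are merged, such as Mirlet7i and Mir1904. They also count the same sites again where genes lie on opposite strands, as at Mir3073a and Mir3073b. The highest number was 4, reached by 7 groups. Besides the miR-17 cluster, Mir10a, Mir124a-2 and Mir9-1 with Mir3093, these included the 7 genes from Mir450b to Mir322 on X, and Mir6402. Overlapping regions are counted in this number, and Mir10a, Mir124a-2 and Mir9-1 with Mir3093 had 3 after merging. The X-linked group, with Mir322 and Mir503, had folds of 10.2 and 13.5, 9.47 and 10.2, 10.5 and 5.02, and 7.12 and 4.21, so 2 of its sites were lower in replicate 2. In Elavl2, Mir6402 had 1 strong site (18.4 and 20.9 from 457 and 543 tags) and 3 weak ones, the next with 4.91 and 5.54. The strong site lay 2971 bp from Mir6402 and covered annotated start windows of Elavl2. A weak one (2.76 and 3.01) touched other Elavl2 start windows, so these sites could belong to that gene. After Mirlet7i, the widest sites were 1281 bp long at Mir1904 in Pde4d (8.81 and 8.13) and 1246 bp long at Mir6916 in Esyt1 (8.75 and 10.1).

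**Figure D5:**
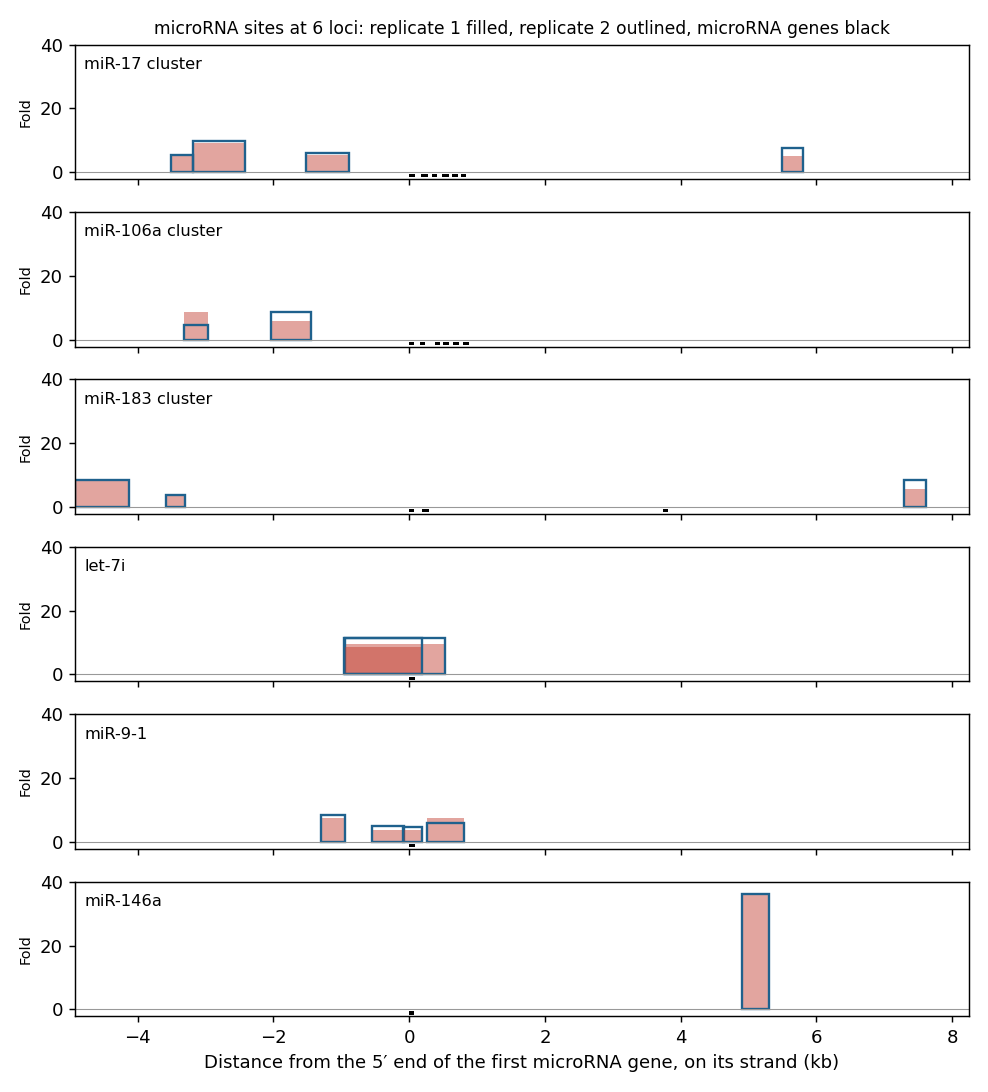
MicroRNA sites at 6 loci, drawn to scale by distance from the 5′ end of the first hairpin on its strand (x axis, kb), with height the fold enrichment (linear) in replicate 1 (filled) and replicate 2 (outlined) and hairpins in black below the line. Both sites of the miR-106a cluster and 3 of the 4 at the miR-17 cluster lie upstream, the let-7i site covers the hairpin, and the single site at miR-146a stands 4835 bp downstream at 35.9 and 36.1.

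Some sites differed strongly between libraries. Among sites with 40 or more tags in both together, Mir5124a in Gcnt2 had 121 tags in replicate 1 and 28 in replicate 2, a log2 ratio of replicate 2 to replicate 1 of -2.11. Mir151 in Ptk2 had 100 and 27 (-1.89). Mir675, whose hairpin lies in the imprinted noncoding gene H19, had 122 and 35 (-1.80) at a site 689 bp upstream, while its downstream site had 20 and 35 tags. At the other extreme, Mir344-2 had 16 and 56 tags (1.81), Mir23a had 26 and 74 (1.51, at a site whose replicate 2 peak also pairs with another replicate 1 peak of 78 tags) and Mir139 in Pde2a had 13 and 32 (2.46 times as many in replicate 2). With 1 value per library, these ratios have no error of their own. The median log2 ratio was 0.08 over microRNA sites and -0.02 over other distal regions, with SDs across sites of 0.52 and 0.60.

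Values at the edges of the rule were as follows. The sites nearest inside 5000 bp were at Mir678 (4996 bp, 6.58 and 5.44), Mir7678 (4994 bp, 7.84 and 9.88) and Mir5619 (4972 bp, 7.21 and 6.72). The regions just outside were at Mir6351 (5006 bp, 10.3 and 19.0), Mir6236 (5028 bp, 14.1 and 14.4) and Mir183 (5035 bp, 2.95 and 2.87).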

How the data were processed

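ATAC-seq peak lists of 2 libraries of Stag3 KO GSCs were used, 1 list per library, so peaks had not been pooled. Per the submitters' processing notes, tools included MACS2 2.1.1 and Bowtie2 2.3.4.1, and the builds were GRCm38.p3 and mm10. Settings, including any Tn5 shift, are not given in the sources used here and bear on peak edges and summits. Each deposited peak had a fold enrichment (a ratio over local background), −log10 p and q-values, and a score as the authors deposited them. The score was not used.

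Tags were recovered from fold, read as (tags + 1) / (background + 1), and from p, read as a Poisson tail, and a whole tag number met both for 100% of peaks (relative tolerance 1e-05 plus 0.0001). Read depth is otherwise unknown. Each replicate 1 peak was joined to its best-overlapping replicate 2 peak (1 bp or more) to make a shared region. Of the 435 microRNA sites, 18 share a replicate 2 peak with another, and 425 are left after overlapping ones are merged. Genes, starts and microRNA sequences came from RefSeq tables on GRCm38.p6, which has the same chromosome coordinates, and exons were not used. Scripts used Python 3.11.15, numpy 2.4.6, pandas 2.3.3 and scipy 1.17.1 and were tested on simulated data. With 1 group there was no test between groups. The 95% Wilson intervals allow for counting error only.

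The members and lists were chosen with earlier results of these data known. Of 229 listed symbols, 9 found no match. Named genes were up to 4 per list by mean fold of the best site and the first 4 alphabetically without one, the 10 highest and 3 lowest sites, the groups with most sites, the 3 widest, the 10 highest that overlap a hairpin, the 3 on each side of 5000 bp, and the 3 extremes of the tag ratio in each direction. Host starts, further cluster members and imprinted hosts were named after their values were seen. A result that this rule names is not reported here.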

Additional observations from a re-analysis of the deposited data

How the results depend on the processing

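With 1 group and 2 libraries, the values describe these libraries, and single sites rest on few tags (a median of 56 and 55 in replicates 1 and 2). Under each of 12 alternatives the microRNA sites had a lower median fold than the other regions of the same setting and a smaller share above the median fold. Recurrence and the tag ratio have no value for 1 library alone. The mean of the median folds, 9.01, was 9.19 with an overlap of 0.5 or more of both peaks, 9.13 at a −log10 q of 5 or more, 10.4 at a fold of 5 or more, 8.19 within 2000 bp, 9.18 within 10000 bp, 9.77 with coding gene ends kept and 9.70 when these were 5000 bp away. In 1 library alone it was 7.53 to 7.68, over 524 to 547 sites at 384 to 408 genes. The 435 sites became 223 within 2000 bp, 804 within 10000 bp and 770 with coding gene ends kept, and the 337 genes became 200, 520 and 522. The share above the median fold in both libraries, 44.1%, was 54.4% at a fold of 5 or more and 49.1% with coding gene ends kept, beside 58.3% and 51.4% of the other regions. Recurrence in replicate 2, 79.5%, was 74.6% with the larger overlap, 83.8% at a fold of 5 or more and 83.7% with coding gene ends kept. The summed tag ratio of replicate 2 to replicate 1, 1.06, was 1.12 with coding gene ends kept and 1.03 with these 5000 bp away. The share of listed genes with a site, 31.8%, was 17.7% within 2000 bp, 39.1% within 10000 bp, 43.6% with coding gene ends kept and 23.2% with these 5000 bp away, and 37.7% in 1 library alone. The Dlk1-Dio3 list stayed at 0 under all 12 alternatives, and the X-linked list reached up to 31.8%. Other lists ranged from 16.7% to 100% (Hox, and miR-34 and miR-449), 21.4% to 71.4% (spermatogonia), 25% to 75% (let-7), 0% to 57.1% (blood and endothelial), 10.3% to 55.2% (broadly expressed), 11.1% to 66.7% (muscle and heart, and epithelial and endocrine) and 28.6% to 71.4% (mesenchymal), with each lowest value within 2000 bp or more than 5000 bp from coding gene ends. Taking the replicate 1 peak as the interval and keeping 1 region per replicate 2 peak were added after seeing the data. No paired analysis was possible because the series holds 1 group.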

Other observations

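MicroRNA genes with a number below 1000, let-7 genes included, had a microRNA site at 146 of 526 (27.8%, 95% Wilson interval 24.1% to 31.7%). Those with a number of 1000 or more, mostly named later from sequencing, had one at 191 of 654 (29.2%, 25.8% to 32.8%), and the intervals overlap. Genes inside a protein-coding gene had a site at 208 of 801 (26.0%, 23.1% to 29.1%), against 129 of 379 genes outside (34.0%, 29.4% to 38.9%). These intervals do not overlap, but genes of 1 cluster are not independent and the rule removes the sites at coding gene ends.

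At imprinted hosts with microRNAs, Mest had 3 sites near Mir335, with folds of 5.61 and 8.72 at a start window, 3.32 and 5.04, and 4.18 and 3.87 in replicates 1 and 2. In Igf2, the sites near Mir483 had 3.97 and 5.77, and 3.94 and 3.56. All of these Mest and Igf2 sites lay below the median fold of the 435 sites in both libraries. The site 689 bp upstream of Mir675, in the imprinted noncoding gene H19, lay above that median in both, with folds of 23.84 and 11.04. Its tags differed strongly between libraries, with 122 in replicate 1 and 35 in replicate 2. The downstream Mir675 site, whose tags are given above, is not set against that median here.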
